A study of Homo sapiens with 24 samples.

Results

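The genes described here are 10 members of the WNT pathway, the ligands *WNT7A*, *WNT7B*, *WNT8B* and *WNT4*, the secreted antagonists *SFRP1*, *SFRP2*, *FRZB* and *DKK1*, and the target genes *AXIN2* and *LEF1*, followed through the neural induction of human induced pluripotent stem cells (hiPSCs). They were listed by name, and each was read from the single-symbol transcript cluster (the array's summary of the probes of 1 transcript region) with the highest mean over all arrays, so that 10 of the 33616 genes with such a cluster were used. Their values come from 24 Clariom D arrays (probes for both coding and noncoding transcripts), hybridized with total RNA of R-2A (HiPS-RIKEN-2A) hiPSCs. *ROR2* KD cells carried an shRNA against *ROR2*, control cells a control shRNA (sh-C), and both were sampled undifferentiated (day 0) and on days 7, 14 and 21 of neural induction in the STEMdiff SMADi medium with a passage every 7 days, as 3 biological replicates of each line at each time. Per the study's methods, both cell lines were made with lentiviral particles and selected with puromycin. Which *ROR2* shRNA the arrays used is not stated in the sources used here, and the labels do not separate independently transduced lines, so that the p-values measure the spread between replicates and an effect of the knockdown cannot be told apart from any other feature in which the lines differ.

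WNT ligands are secreted lipid-modified glycoproteins that bind Frizzled receptors. In the canonical branch, binding with an LRP coreceptor stabilizes β-catenin, which joins TCF/LEF factors at target genes such as *AXIN2*, while ROR2 is a receptor for WNT5A in the noncanonical branch. Secreted frizzled-related proteins (SFRPs, FRZB among them) bind WNTs outside the cell and DKK1 blocks the LRP coreceptors, and in the developing forebrain WNT signaling is known for its part in dorsal and posterior patterning.

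Values are log2 signals after robust multi-array average (RMA), and a difference is the *ROR2* KD mean minus the control mean with its standard error (SE) from limma, fitted to all 24 arrays. Calls required an adjusted p under 0.05 (Benjamini-Hochberg over 135750 transcript clusters) together with a log2 difference beyond 1 in either direction. Each array has 23 background probe sets, and their 95th percentile is taken here as that array's background level. It lay between 7.30 and 9.97 over the arrays, well above the medians of these probe sets (2.87 to 3.44), so that a signal under it may still be a transcript. Where all arrays of the dimmer group were under this level, a fold is given as a lower bound, the brighter group's mean against the mean background level of the dimmer arrays. *WNT7B*, *WNT8B*, *WNT4* and *DKK1* were under the level on all 24 arrays, *WNT7A* was above it on 6, *AXIN2* on 10, *FRZB* and *LEF1* on 18 each, and *SFRP1* and *SFRP2* on all 24. The targeted gene *ROR2* was above the background level only on the 3 control arrays of day 7, when it was at least 1.997-fold lower in *ROR2* KD cells. Its log2 difference was -2.51 on day 0, -2.62 on day 7 and -2.56 on day 14, each called. On day 21 it was -0.89, which was not called (adjusted p = 0.0823). Outside day 7 these sizes rest on signals under background in both lines. Apart from its arrays, the paper reports lower *ROR2* transcript and protein in *ROR2* KD cells, by quantitative RT-PCR and western blot. On day 0, all 9 measured pluripotency markers were above background on every array of both cell lines, and on day 21, 9 or 10 of 10 neural stem/progenitor cell (NS/PC) markers were. At most 2 of 11 neural crest and mesenchyme markers and 1 of 10 mesoderm and endoderm markers reached the level on any array.

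The cell lines did not differ by a called amount in any of the 10 genes before day 14. On day 14, 2 members were called, *WNT7A* and *SFRP2*, both higher in *ROR2* KD cells, and on day 21, 4 were called, with *WNT7A*, *SFRP1* and *SFRP2* higher and *FRZB* lower. Over all transcript clusters, in either direction, 0.0464% were called on day 0, 0.228% on day 7, 0.595% on day 14 and 1.85% on day 21. Beside the 0 members called on days 0 and 7, 1 member (*FRZB*, day 0) and 2 members (*DKK1* and *LEF1*, day 7) had an unadjusted p under 0.05 in the same limma fit, as did 10.1% and 10.9% of all clusters on these days, so that these counts are near the share over all clusters. The arrays of both cell lines did not overlap for 1, 4, 6 and 6 of the 10 members on days 0, 7, 14 and 21, against 12.5%, 15.1%, 15.1% and 14.5% of all clusters. The median difference of the members was -0.01, 0.11, 0.14 and 0.50 on these days, against -0.003, 0.07, -0.01 and 0.02 over all clusters. The members were chosen with earlier results of these data known, and only 37295 of the 135750 clusters carry a symbol. The shares over all clusters therefore describe and do not test the members. With the methods' t-test, which takes the spread of each gene from its own 6 arrays, 0 members were called on day 0, 0 on day 7, 0 on day 14 and 2 on day 21 (*SFRP2* and *FRZB*), and the adjusted p of *WNT7A* was 0.109 on day 14 and 0.0503 on day 21. The paper's methods name this test for comparisons between groups in general. For its arrays the paper gives adjusted p-values, calculated with Transcriptome Analysis Console where a source is named. The counts with this test, here and below, are therefore not the study's own array calls.

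**Figure D1:**
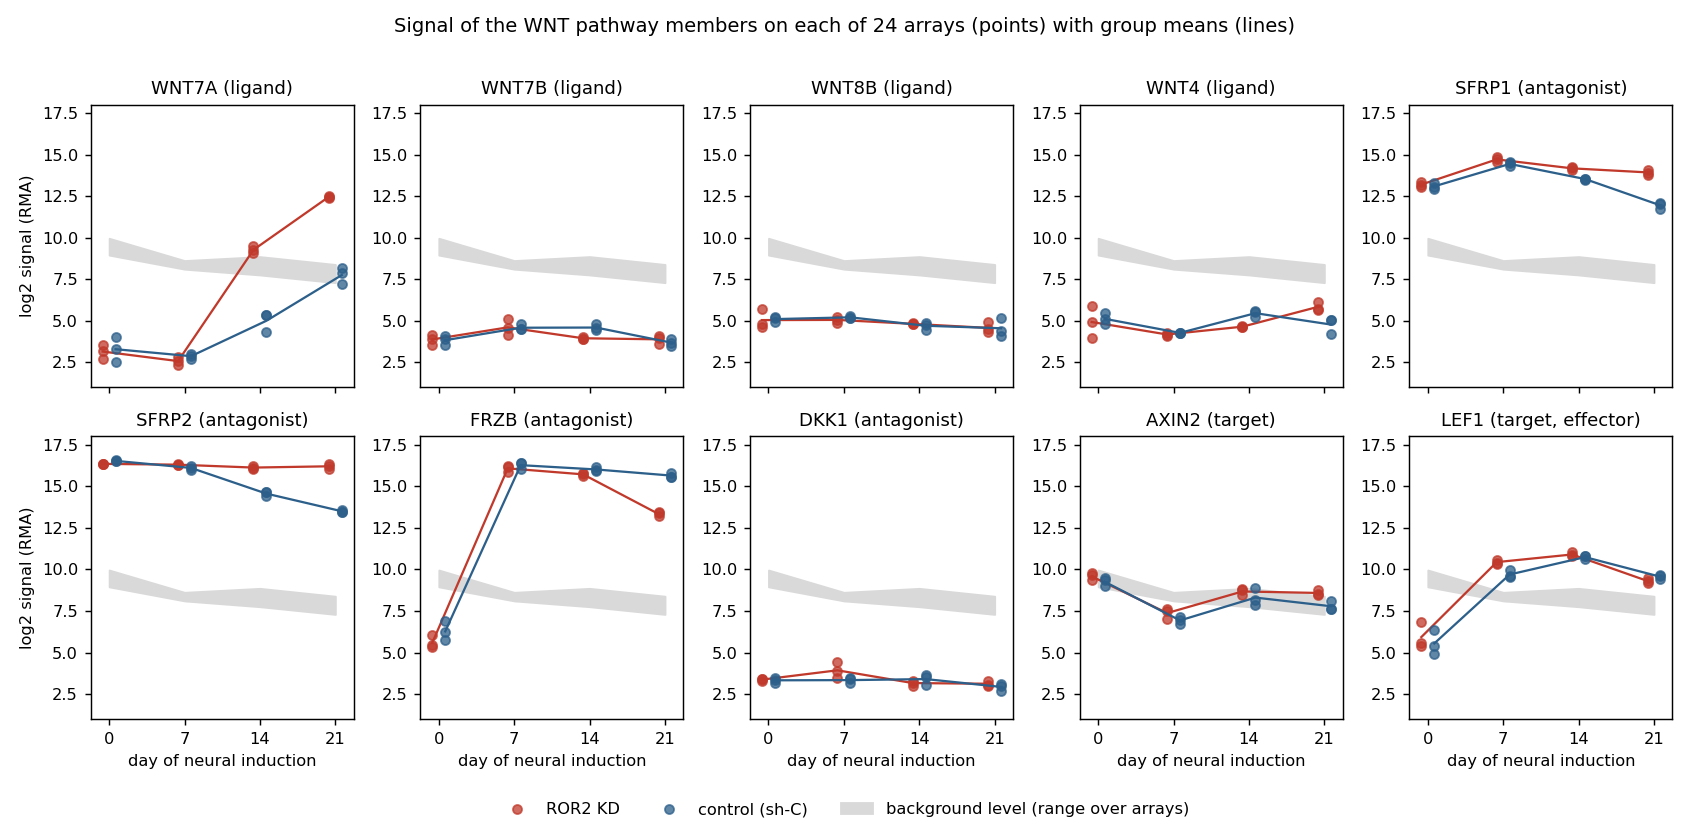
Log2 signal of each member (vertical axis) by day of neural induction (horizontal axis) on each of the 24 arrays. Red points are *ROR2* KD arrays, blue points control arrays (n = 3 per cell line and day), lines join the group means and the grey band spans the background levels of the 6 arrays of each day. *WNT7A* rises above the band only in *ROR2* KD cells, *SFRP1* and *SFRP2* fall in control cells after day 7, and *FRZB* falls in *ROR2* KD cells on day 21.

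To show what lies upstream of the members whose lines diverged, the 250 bases before the transcript start (5′ to 3′ on the gene's strand) are printed for *WNT7A*, *SFRP2* and *FRZB*. Those of *DKK1* are printed as well. It was the only searched member with the longer motif given below, so that it is no independent comparison. The printed stretches are RefSeq promoter sequences of GRCh38.p14, at chr3:13880072-13880321 (minus strand), chr4:153789084-153789333 (minus strand), chr2:182866638-182866887 (minus strand) and chr10:52314031-52314280 (plus strand). Capitals mark CTTTG or its reverse complement CAAAG, the core of the TCF/LEF motif.
WNT7A: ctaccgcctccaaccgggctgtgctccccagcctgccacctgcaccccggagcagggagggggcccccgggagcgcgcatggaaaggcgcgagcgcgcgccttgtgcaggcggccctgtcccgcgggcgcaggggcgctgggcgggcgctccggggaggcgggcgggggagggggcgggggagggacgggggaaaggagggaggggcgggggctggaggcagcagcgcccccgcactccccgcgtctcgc
SFRP2: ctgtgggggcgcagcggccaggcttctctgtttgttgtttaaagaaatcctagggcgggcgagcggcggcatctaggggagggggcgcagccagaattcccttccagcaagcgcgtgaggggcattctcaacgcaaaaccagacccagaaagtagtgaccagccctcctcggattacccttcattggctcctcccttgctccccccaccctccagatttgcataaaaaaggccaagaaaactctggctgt
FRZB: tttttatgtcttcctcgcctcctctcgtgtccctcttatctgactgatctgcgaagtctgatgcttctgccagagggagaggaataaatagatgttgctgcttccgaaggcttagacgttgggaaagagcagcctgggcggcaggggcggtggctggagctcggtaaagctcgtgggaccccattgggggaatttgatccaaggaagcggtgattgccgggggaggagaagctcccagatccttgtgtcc
DKK1: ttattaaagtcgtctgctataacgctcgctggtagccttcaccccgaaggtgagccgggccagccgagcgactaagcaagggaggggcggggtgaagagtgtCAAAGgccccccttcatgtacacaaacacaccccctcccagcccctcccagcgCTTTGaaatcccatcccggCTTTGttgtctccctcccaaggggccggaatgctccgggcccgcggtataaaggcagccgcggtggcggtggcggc
Of the 10 members, 7 were found in the promoter table (*WNT7A*, *WNT8B*, *WNT4*, *SFRP2*, *FRZB*, *DKK1* and *LEF1*). The longer letters CTTTGAT or CTTTGAA, searched on both strands from 250 bases before to 50 bases after the start, were found only for *DKK1* (1 match, 95 bases before the start), and 6.86% of 35116 promoter windows hold them. The core CTTTG, which overlaps the longer motif, was found 2 times for *WNT8B*, 3 times for *DKK1* and 1 time for *LEF1*, and 47.5% of all windows hold it. The windows of *WNT7A* and *WNT4* were rich in G and C (80.3% and 85.7%, against a median of 58.7% over all windows). A match describes letters and no binding was measured.

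*WNT7A*, a ligand that can signal through β-catenin, was above the background level in *ROR2* KD cells from day 14 on and in control cells on no day. On day 14 its signal was 9.10, 9.24 and 9.49 on the *ROR2* KD arrays, against 4.32, 5.33 and 5.37 on the control arrays. On day 21 it was 12.48, 12.50 and 12.41 in *ROR2* KD cells, against 7.24, 7.87 and 8.17 in control cells. These control signals were well above the medians of the background probe sets on the same arrays (2.94 to 2.96), so that absence of the transcript is not implied. The groups stood apart by several log2 units on both days, and the *ROR2* KD arrays of day 14 were already above every control array of day 21. The differences were 4.27 on day 14 (SE 0.33, adjusted p = 2.08e-08) and 4.71 on day 21 (SE 0.33, adjusted p = 1.21e-09). Because all control arrays were under their background level, *WNT7A* was at least 1.51-fold higher on day 14 and at least 17.6-fold higher on day 21. The background level itself was lower on the *ROR2* KD arrays of day 14 (7.76 to 8.07) than on the control arrays (8.54 to 8.87), and the *ROR2* KD signals lay above both ranges. These arrays hold bulk RNA, so that more cells with a transcript and more transcript per cell cannot be told apart, here and below.

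Before day 14 *WNT7A* was not detected above background in either cell line. On day 0 it read 3.57, 2.73 and 3.18 in *ROR2* KD cells, against 4.04, 2.55 and 3.31 in control cells, and on day 7 it read 2.83, 2.57 and 2.35 in *ROR2* KD cells, against 3.01, 2.90 and 2.73 in control cells. All 12 values were low, around the medians of the background probe sets, and the groups overlapped on both days. In the order of the group means, *ROR2* KD day 21 (12.46) was followed by *ROR2* KD day 14 (9.28), control day 21 (7.76) and control day 14 (5.01), each apart from its neighbour on every array, whereas the 4 groups of days 0 and 7 (2.58 to 3.30) overlapped with a neighbour in that order.

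*WNT7A* rose with time in both lines. In *ROR2* KD cells the steps were 6.69 between days 7 and 14 (adjusted p = 1.08e-12, at least 1.98-fold) and 3.19 between days 14 and 21 (adjusted p = 4.92e-07, 9.12-fold). In control cells the same steps were 2.13 (adjusted p = 0.00013) and 2.75 (adjusted p = 4.53e-06), although the control signal stayed under the background level, and with the methods' t-test neither control step was called (adjusted p = 0.104 and 0.0920). The difference between the cell lines widened from day 7 to day 14 by 4.56 (SE 0.46, adjusted p = 6.75e-06), a size that rests on 3 groups under the background level, and its change from day 14 to day 21 was 0.44 (95% interval -0.52 to 1.39, not called). Over all clusters, 0.292% had a called change of the difference between days 7 and 14 and 0.460% between days 14 and 21.

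The other 3 ligands stayed under the background level, and none was called between the cell lines on any day. *WNT4*, known for its part in kidney and gonad development, came closest. On day 21 it read 6.13, 5.73 and 5.68 in *ROR2* KD cells, against 5.08, 4.19 and 5.08 in control cells, a difference of 1.06 (SE 0.32, adjusted p = 0.0955) with no overlap. On day 14 the order was the other way round, with 4.62, 4.69 and 4.64 in *ROR2* KD cells and 5.53, 5.25 and 5.61 in control cells (-0.81, adjusted p = 0.606). *WNT4* thus rose between days 7 and 14 in control cells (1.18, adjusted p = 0.0336) and between days 14 and 21 in *ROR2* KD cells (1.19, adjusted p = 0.0224). The first of these calls was lost without any 1 of its 6 arrays (adjusted p = 0.0596 to 0.133), and the second without day 14 replicate 1, 2 or 3 or day 21 replicate 1 (0.0591 to 0.0816). With the replicate number as a block, which the arrays did not bear out, *WNT4* was called on day 21 (adjusted p = 0.0449), as it was with single-symbol clusters only (adjusted p = 0.0284). The change of its difference between days 14 and 21 was 1.87 (SE 0.45, adjusted p = 0.0743) and was not called, but it was with array weights (1.83, adjusted p = 0.0158), with single-symbol clusters only (adjusted p = 0.0164), with the block (adjusted p = 0.0289) and with only the 12 arrays compared (adjusted p = 0.0331).

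*WNT7B*, the paralog of *WNT7A*, did not follow it. On day 14 *WNT7B* read 3.93, 3.90 and 4.05 in *ROR2* KD cells, against 4.44, 4.58 and 4.79 in control cells, a difference of -0.64 (SE 0.23, adjusted p = 0.494). On day 21 its difference was 0.20 with a 95% interval of -0.29 to 0.69. *WNT8B*, a ligand known from the embryonic forebrain, had group means between 4.56 and 5.22, and its difference lay between -0.16 and 0.11 on the 4 days, with overlapping groups on each. The 95% interval of the *WNT8B* difference on day 21 was -0.54 to 0.58.

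Of the antagonists, *SFRP2* was high in undifferentiated cells of both lines and differed later. On day 0 it read 16.34, 16.37 and 16.34 in *ROR2* KD cells, against 16.51, 16.58 and 16.50 in control cells, and on day 7 it read 16.33, 16.28 and 16.30 in *ROR2* KD cells, against 15.99, 16.11 and 16.22 in control cells. On day 14 it read 16.03, 16.23 and 16.13 in *ROR2* KD cells, against 14.39, 14.66 and 14.64 in control cells, and on day 21 it read 16.36, 16.21 and 16.04 in *ROR2* KD cells, against 13.46, 13.47 and 13.58 in control cells. The *ROR2* KD signal stayed within a narrow range over 21 days, while the control signal dropped. The differences were 1.57 on day 14 (SE 0.16, 2.96-fold, adjusted p = 2.49e-06) and 2.70 on day 21 (SE 0.16, 6.51-fold, adjusted p = 9.30e-11). In control cells *SFRP2* fell by 1.54 between days 7 and 14 (adjusted p = 5.68e-07) and by 1.06 between days 14 and 21 (adjusted p = 1.21e-04), whereas in *ROR2* KD cells the same steps were -0.17 and 0.08 and were not called. The widening of the difference was called for both steps, at 1.37 (SE 0.23, adjusted p = 0.00378) and 1.14 (SE 0.23, adjusted p = 0.0150). The second of these was not called without control day 14 replicate 2 or 3 or *ROR2* KD day 14 replicate 1 or day 21 replicate 1 (adjusted p = 0.0536 to 0.0597), nor with only the 12 arrays compared (adjusted p = 0.104).

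*SFRP1*, a close relative of *SFRP2*, was called a week later. On day 7 it read 14.85, 14.71 and 14.57 in *ROR2* KD cells and 14.48, 14.55 and 14.29 in control cells, after a rise from day 0 in both lines (1.51 in *ROR2* KD cells, adjusted p = 5.53e-07, and 1.35 in control cells, adjusted p = 2.41e-06). On day 14 it read 14.25, 14.18 and 14.09 in *ROR2* KD cells, against 13.55, 13.49 and 13.55 in control cells. The groups of day 14 did not overlap, but the difference of 0.64 was not called (SE 0.18, adjusted p = 0.139). On day 21 *SFRP1* read 14.08, 13.79 and 13.91 in *ROR2* KD cells, against 12.00, 12.11 and 11.72 in control cells, a difference of 1.98 (SE 0.18, 3.96-fold, adjusted p = 8.56e-08). The drop between days 14 and 21 was called in control cells (-1.58, adjusted p = 1.86e-06) and not in *ROR2* KD cells (-0.24, adjusted p = 0.487), and the change of the difference itself was 1.34 (SE 0.25, adjusted p = 0.00747).

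*FRZB*, the third SFRP-type member, moved in the opposite direction. On day 0 it was under the background level in both lines, at 5.43, 6.05 and 5.32 in *ROR2* KD cells and 6.87, 5.74 and 6.23 in control cells. On day 7 it read 16.21, 16.15 and 15.89 in *ROR2* KD cells and 16.39, 16.41 and 16.01 in control cells, and on day 14 it read 15.78, 15.75 and 15.63 in *ROR2* KD cells and 15.97, 15.90 and 16.18 in control cells. *FRZB* thus rose over the first week in both lines, by at least 110-fold in *ROR2* KD cells (log2 change 10.48, adjusted p = 5.17e-19) and at least 100.1-fold in control cells (9.99, adjusted p = 9.67e-19), and the differences between the lines on days 0, 7 and 14 (-0.68, -0.19 and -0.29) were not called. On day 21 *FRZB* read 13.19, 13.44 and 13.39 in *ROR2* KD cells, against 15.79, 15.57 and 15.58 in control cells. This difference was -2.31 (SE 0.24, adjusted p = 1.04e-06, 4.95-fold lower). From day 14 to day 21 *FRZB* fell by 2.38 in *ROR2* KD cells (adjusted p = 4.24e-07), the step in control cells was -0.37 (adjusted p = 0.487), and the difference changed by -2.01 (SE 0.34, adjusted p = 0.00266).

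*DKK1* had no signal above background on any array. The array holds 2 clusters with this symbol, and the brighter one, which the rule takes, carries no Entrez gene ID in the annotation. On day 7 it read 3.88, 4.43 and 3.50 in *ROR2* KD cells, against 3.46, 3.41 and 3.18 in control cells (0.59, SE 0.22, adjusted p = 0.309). The other cluster, annotated with the *DKK1* Entrez ID, had a difference of -0.05 on that day, so that no direction is given for *DKK1*.

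**Figure D2:**
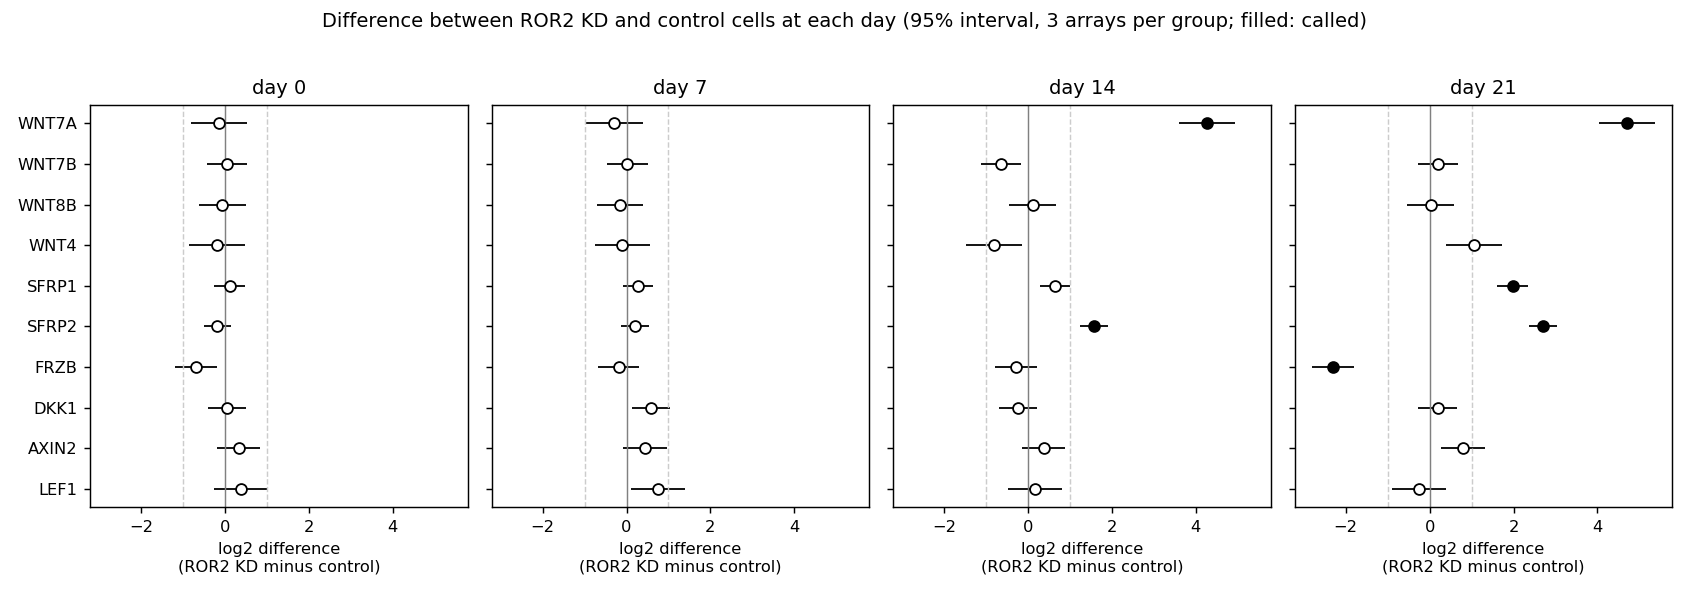
Log2 difference (*ROR2* KD minus control, horizontal axis) of each member (vertical axis) on days 0, 7, 14 and 21. Points are limma estimates from 3 arrays per group with 95% intervals, filled points were called, and dashed lines mark a log2 difference of 1 in either direction. Filled points appear on day 14 for *WNT7A* and *SFRP2* and on day 21 for *WNT7A*, *SFRP1*, *SFRP2* and *FRZB*, the last on the left of 0.

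*AXIN2*, a scaffold of the β-catenin destruction complex and a feedback target of canonical WNT signaling, had called steps with time in both lines and none between the lines. On day 0 it read 9.77, 9.35 and 9.65 in *ROR2* KD cells and 9.48, 9.34 and 8.98 in control cells, and on day 7 it read 7.52, 7.63 and 7.00 in *ROR2* KD cells and 7.12, 6.94 and 6.75 in control cells. Its change from day 0 to day 7 was -2.21 in *ROR2* KD cells (adjusted p = 3.58e-07, at least 2.46-fold lower) and -2.33 in control cells (adjusted p = 1.32e-07). In control cells the arrays of both days were under the background level, so that no bound is given. On day 14 it read 8.80, 8.46 and 8.78 in *ROR2* KD cells and 7.87, 8.15 and 8.91 in control cells, higher again than on day 7 by 1.30 in *ROR2* KD cells (adjusted p = 0.00145) and by 1.37 in control cells (adjusted p = 0.00105). All day 7 arrays were under background, so that the rise in *ROR2* KD cells was at least 1.31-fold. Only 1 control array of day 14 was above its level, and the control rise has no usable bound. With the methods' t-test neither rise was called (adjusted p = 0.121 and 0.192). On day 21 it read 8.55, 8.44 and 8.78 in *ROR2* KD cells, against 7.61, 8.12 and 7.64 in control cells. These groups did not overlap, but the difference of 0.80 (SE 0.25, 95% interval 0.28 to 1.32, adjusted p = 0.120) was not called. On days 0, 7 and 14 the differences were 0.32, 0.44 and 0.37, with overlapping groups, and were not called either.

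*LEF1*, a DNA-binding partner of β-catenin that is also a WNT target, rose in the first week in both lines. On day 0 it was under the background level, at 6.82, 5.61 and 5.38 in *ROR2* KD cells and 4.91, 5.38 and 6.36 in control cells. On day 7 it read 10.41, 10.59 and 10.33 in *ROR2* KD cells, against 9.60, 9.96 and 9.54 in control cells, without overlap (difference 0.74, SE 0.31, adjusted p = 0.372, not called). The rise from day 0 was 4.51 in *ROR2* KD cells (adjusted p = 1.18e-10, at least 2.21-fold) and 4.15 in control cells (adjusted p = 3.99e-10, at least 1.05-fold). On day 14 it read 10.85, 11.06 and 10.81 in *ROR2* KD cells and 10.82, 10.63 and 10.78 in control cells, and on day 21 it read 9.30, 9.17 and 9.47 in *ROR2* KD cells and 9.43, 9.61 and 9.65 in control cells. The groups overlapped on both days. The step between days 14 and 21 was -1.59 in *ROR2* KD cells (adjusted p = 0.00168) and -1.18 in control cells (adjusted p = 0.0239), the control call being lost without any 1 of its 6 arrays (adjusted p = 0.0561 to 0.0862). On day 21 its difference was -0.25 with a 95% interval of -0.90 to 0.39.

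Each line was also compared between consecutive days. From day 0 to day 7 the same 4 members were called in both (*SFRP1*, *FRZB* and *LEF1* higher on day 7, *AXIN2* lower), where 17.6% of all clusters were called in *ROR2* KD cells and 17.1% in control cells. From day 7 to day 14, 2 members were called in *ROR2* KD cells (*WNT7A* and *AXIN2*, both higher on day 14, 4.82% of all clusters) and 4 in control cells (*WNT7A*, *WNT4* and *AXIN2* higher, *SFRP2* lower, 3.09%). From day 14 to day 21, 4 were called in *ROR2* KD cells (*WNT7A* and *WNT4* higher, *FRZB* and *LEF1* lower, 5.10%) and 4 in control cells (*WNT7A* higher, *SFRP1*, *SFRP2* and *LEF1* lower, 3.95%). The difference between the lines changed by a called amount for 0 members between days 0 and 7 (0.0390% of all clusters called). At an unadjusted p under 0.05 in limma it also changed for 0 members over this step, against 9.38% of all clusters. It changed by a called amount for 2 members between days 7 and 14 (0.292% of all clusters) and for 3 between days 14 and 21 (0.460%).

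The other genes of the pathway were read from lists by role. On days 0 and 7, *ROR2* was the only one called in any of the 8 lists. Among 19 WNT ligands, *WNT7A* was the only one higher on days 14 and 21. *WNT2B*, a ligand of the dorsal midline, was lower on day 14, at 4.92 ± 0.04 in *ROR2* KD cells and 6.60 ± 0.27 in control cells (SD, n = 3 each; difference -1.68, adjusted p = 6.35e-04), all under the background level. *WNT5A*, the ROR2 ligand, was lower on day 21, by at least 2.25-fold (-3.71, adjusted p = 5.86e-11). The median difference over the 19 ligands was -0.01 on day 14 and 0.02 on day 21. Of 15 measured secreted antagonists, *SFRP2* was higher on day 14 and *SFRP1* and *SFRP2* were higher and *FRZB* lower on day 21, so that all called antagonists were members, and the list medians were -0.04 and 0.08.

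Upstream of the receptors, 3 of 7 R-spondin and LGR genes, which enhance WNT signaling, were called on day 14. The ligand gene *RSPO1* was lower, at 5.38 ± 0.70 in *ROR2* KD cells and 8.83 ± 0.52 in control cells (-3.45, adjusted p = 1.27e-05), with 2 of 3 control arrays above background. *RSPO3* was lower too, at 4.64 ± 0.19 in *ROR2* KD cells and 7.05 ± 0.45 in control cells (-2.41, adjusted p = 9.36e-05, all under background). The R-spondin receptor gene *LGR5*, itself a WNT target, was higher on day 14 by at least 1.43-fold (1.56, adjusted p = 0.0303) and lower on day 21 (-1.35, adjusted p = 0.0379, both groups under background), when *LGR4* was lower as well (-1.51, adjusted p = 2.56e-06). The list medians were -0.36 on day 14 and -0.15 on day 21. Of 5 genes of WNT secretion and extracellular handling, the glypican gene *GPC4* was higher on both days (3.07, adjusted p = 5.25e-10, and 1.38, adjusted p = 4.23e-05), while *GPC3* (-3.52) and *TMED5* (-1.20) were lower on day 21.

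Among 18 measured receptors and coreceptors, the Frizzled gene *FZD7* was the only one higher on day 14 or 21. It read 12.29 ± 0.15 in *ROR2* KD cells and 10.50 ± 0.11 in control cells on day 14 (1.78, adjusted p = 5.93e-06), and 14.09 ± 0.11 in *ROR2* KD cells and 7.79 ± 0.42 in control cells on day 21 (6.31, adjusted p = 5.61e-16, at least 54.3-fold). *ROR2* was lower on day 14 (-2.56). Other Frizzled genes went the other way, with *FZD5* lower on both days (-2.32 and -2.50). On day 21 *FZD1* (-1.49), *FZD4* (-2.07, at least 2.01-fold) and *FZD6* (-1.98, at least 1.91-fold) were lower as well. The list medians were -0.24 and -0.32. In the cytoplasm, 0 of 14 measured relay and destruction complex genes were called on day 14 and 1 on day 21 (*AMER1*, -1.21, under background in both groups). Of 11 nuclear effectors, the Groucho-type corepressor *TLE1* was higher on days 14 (2.23) and 21 (2.93), *TLE4* higher on day 21 (1.75) and *TCF7L2* lower on day 21 (-1.06).

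The 19 measured direct targets and feedback genes did not move one way. On day 14 *LGR5* (1.56) and *TNFRSF19* (1.65, under background in both groups) were higher and 0 were lower, with a list median of -0.02. On day 21 *TNFRSF19* was higher, at 7.82 ± 0.20 in *ROR2* KD cells and 4.82 ± 0.10 in control cells (adjusted p = 3.32e-08). *MYC* (1.01, adjusted p = 0.0468, both groups under background) was also higher, and *LGR5* (-1.35) and the cyclin gene *CCND1* were lower, with a list median of 0.03. *CCND1* read 9.34 ± 0.36 in *ROR2* KD cells and 12.81 ± 0.13 in control cells on day 21 (-3.47, adjusted p = 1.66e-10). *TNFRSF19* was above background on 2 of 3 *ROR2* KD arrays of day 21 and on 0 control arrays.

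**Figure D3:**
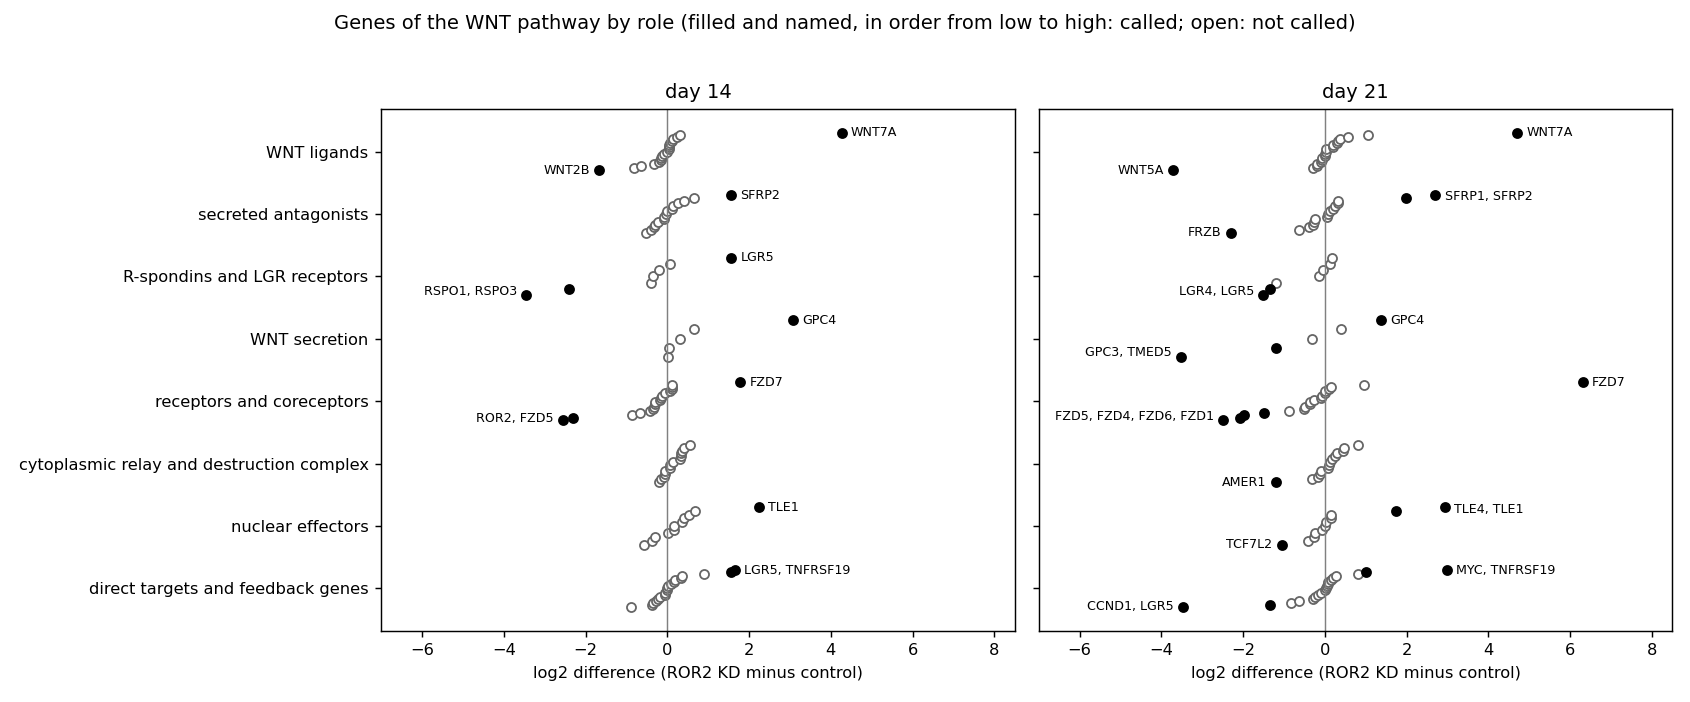
Log2 difference (*ROR2* KD minus control, horizontal axis) of each measured gene in 8 lists by role in the pathway (vertical axis) on days 14 and 21. Each point is 1 gene from 3 arrays per group, filled points were called and are named in order from the lowest to the highest. Most genes lie near 0 on both days, with *WNT7A* at 4.27 and 4.71 and *FZD7* at 1.78 and 6.31.

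Markers of cell types differed between the lines as well, some of them on day 7, when 0 members were called. On day 14, 5 of 9 measured markers of postmitotic neurons were higher in *ROR2* KD cells (among them *SNAP25* by 1.75, *GAP43* by 1.74, at least 2.20-fold, and *STMN2* by 1.73) and 0 lower. The control arrays of *SNAP25* were all under background and gave no usable bound. The summed linear signal of the list was 149221 to 166547 on *ROR2* KD arrays, against 53711 to 59412 on control arrays. On day 21, 3 were higher and 0 lower, with sums of 376550 to 393636 in *ROR2* KD cells, against 237004 to 262679 in control cells. The summed neuronal signal was thus higher in *ROR2* KD cells on both days, as were *WNT7A* and *SFRP2*. Across days the order differed: control day 21 had larger neuronal sums than *ROR2* KD day 14, but lower means of *WNT7A* (7.76 against 9.28) and *SFRP2* (13.50 against 16.13). A link between them was not tested.

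Regional markers differed from day 7 on, and some belong to the pathway itself. Of 12 markers of the cortical hem and choroid plexus, the WNT-rich dorsal midline of the forebrain, *OTX2* (1.62, adjusted p = 5.95e-04) and *KCNJ13* (adjusted p = 0.00541) were already higher in *ROR2* KD cells on day 7, and the list summed to 36728 to 49842 in *ROR2* KD cells, against 12674 to 16448 in control cells on that day. *NEUROG2* of the dorsal (-1.20) and *SIX6* of the ventral forebrain list (-1.06) were lower on day 7, both under background in both groups. Of the hem and choroid plexus markers, *WNT2B*, *RSPO1* and *RSPO3* were lower and *KCNJ13* was higher (6.46, at least 7.27-fold) on day 14. On day 21, *OTX2* was lower (-3.33) while *KCNJ13* (6.68) and *CLIC6* (2.87) were higher. The summed signal of the list was 63082 to 63946 in *ROR2* KD cells, against 70017 to 93845 in control cells on day 14, and 6100 to 7353 in *ROR2* KD cells, against 26628 to 31739 in control cells on day 21. The mean log2 signal of the list went the other way on day 21, at 6.01 to 6.22 in *ROR2* KD cells, against 5.54 to 5.64 in control cells. Of 9 ventral forebrain markers, 4 were higher on day 14, among them *DLX5* (6.48, at least 16.4-fold) and *DLX1* (6.18, at least 16.8-fold), and *NKX2-1* was lower (-3.33, at least 3.34-fold). On day 21 2 were higher and 3 lower, *NKX2-1* (-5.86, at least 38.5-fold), *LHX6* (-4.83, at least 5.34-fold) and *LHX8* (-4.48). Their sums were 14607 to 16063 in *ROR2* KD cells, against 932 to 1463 in control cells on day 14, and 61227 to 77951 in *ROR2* KD cells, against 76196 to 87915 in control cells on day 21.

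Dorsal forebrain markers had 1 of 8 called on each of these days, *PAX6*, which was higher by 2.23 on day 14 and 10.58 on day 21 (at least 153-fold, all control arrays of day 21 being under background). With *PAX6* in it, the dorsal list summed to 64536 to 72703 in *ROR2* KD cells, against 30729 to 41952 in control cells on day 14, and to 68153 to 70621 in *ROR2* KD cells, against 11017 to 12632 in control cells on day 21. Of 10 NS/PC markers, 1 was higher (*PAX6*) and 1 lower (*FABP7* on day 14, *NES* on day 21) on each of days 14 and 21, and their sums overlapped between the lines on both days. With *PAX6* in it, the mean log2 signal of the list was higher in *ROR2* KD cells without overlap. It was 14.57 to 14.65 against 14.19 to 14.47 in control cells on day 14, and 14.19 to 14.45 against 13.41 to 13.56 on day 21. The median difference over these 10 markers was 0.28 on day 14 and -0.20 on day 21. The higher mean of day 21 was thus not a rise of most of them. Sums are led by the brightest genes of a list. The part of these markers in the differences of the members was not tested.

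The genes whose 8 group means were most like those of *WNT7A*, among 7496 genes with a span of at least 2 log2 units and a highest group mean above the median of the background probe sets, were *CFAP47* (Pearson's r = 0.989), *FAM181A* (0.987), *CCSER1* (0.987), *PCDH9* (0.987) and *SYT5* (0.985). The points of these correlations are 8 means of the same 24 arrays, so that r is a description. *PCDH9*, a protocadherin gene of the nervous system, read 7.69 ± 0.19 in *ROR2* KD cells and 5.33 ± 0.39 in control cells on day 14, and 9.63 ± 0.39 in *ROR2* KD cells and 7.64 ± 0.27 in control cells on day 21 (SD, n = 3 each). It was above the background level on 4 *ROR2* KD arrays of these days and on 0 control arrays. *CFAP47*, *FAM181A* and *SYT5* stayed under the level on all arrays, and *CCSER1* was above it on 2 *ROR2* KD arrays of day 21.

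**Figure D4:**
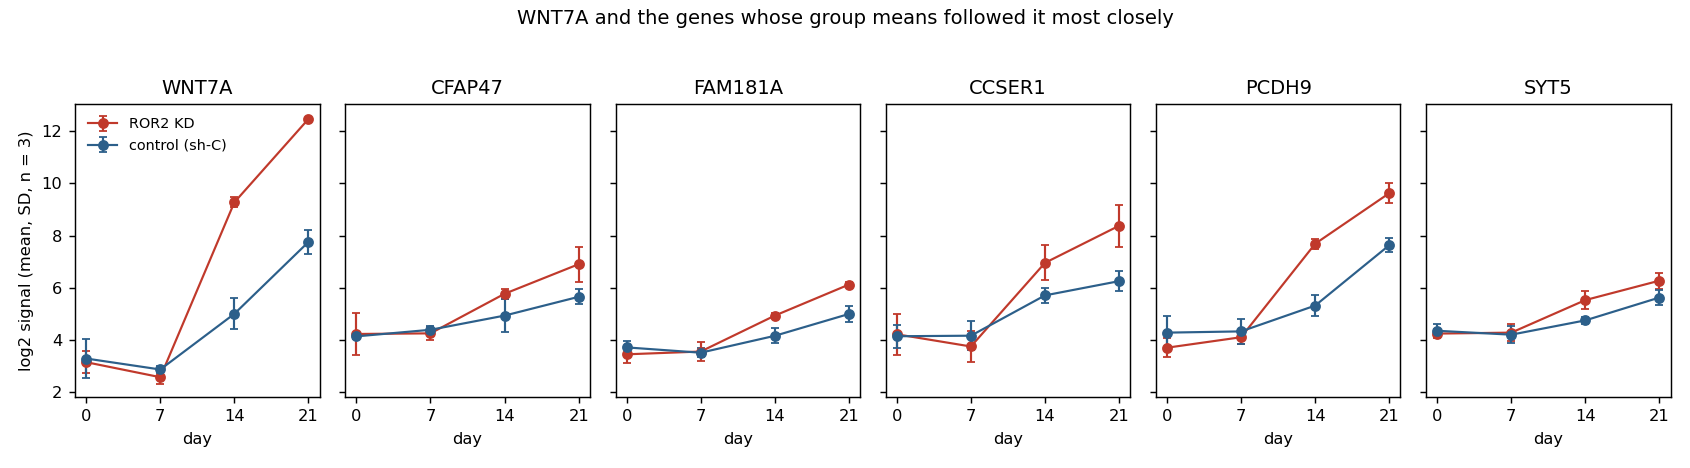
Mean log2 signal (vertical axis, error bars are SD, n = 3) by day of neural induction (horizontal axis) for *WNT7A* and the 5 genes with the most similar group means. Red lines are *ROR2* KD cells and blue lines control cells, and in each panel both lines climb after day 7 with *ROR2* KD above control on days 14 and 21.

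By the same measure, the genes most like *SFRP2* were *MAMDC2* (0.975), the receptor gene *FZD7* (0.952) and *AFF1* (0.944), and those most like *SFRP1* were *CA2* (0.947), *TMEM132B* (0.940) and *GAS1* (0.924). *FRZB* was followed by *DTNA* (0.997), *NAPEPLD* (0.997) and *ZNF516* (0.997), *LEF1* by *ZBTB16* (0.993), *DNAH6* (0.991) and *FEZF1-AS1* (0.991), and *AXIN2* by *PCGF5* (0.974), *MRPL48* (0.967) and *GPRC5B* (0.965). *FRZB* and *LEF1*, which both rose by day 7, had r = 0.97 with each other, and *FRZB* and *AXIN2*, of which *AXIN2* fell by day 7, had r = -0.82. *WNT7A* and *SFRP2*, although both higher in *ROR2* KD cells from day 14, had r = -0.20 over the 8 means, and *SFRP2* fell with time in control cells while *WNT7A* rose in both lines.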

How the data were processed

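The authors deposited log2 signals of 24 Clariom D arrays, made with RMA in Transcriptome Analysis Console (background correction, normalization between arrays and 1 value per transcript cluster and array). No genome build is given in the sources used here. The 2995 array controls among the 138745 probe sets were removed, and 135750 clusters were tested without further scaling or a filter. Gene symbols came from the platform annotation (37295 clusters with a symbol, 36176 with 1 and 1119 with several). Array medians lay between 4.26 and 4.51, arrays of a group correlated at 0.963 to 0.987, and 0 pairs of arrays were identical. The number of arrays limits the precision.

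A means model of 8 groups (cell line by day) was fitted with limma 3.58.1 in R 4.3.3 (16 residual and 6.36 prior degrees of freedom), with two-sided p-values adjusted by the Benjamini-Hochberg method, comparing *ROR2* KD with control cells on each day, consecutive days within a line, and the line difference of 1 day with that of the day before. The model was tested on simulated data with known changes. Arrays of the same replicate number in both lines did not as a rule deviate together, so replicates were not paired. The highest correlation of their residuals was 0.22 (day 21, replicate 3). Of the symbols in the lists, 9 had no single-symbol cluster. The members and lists were chosen with earlier results of these data known. Named genes are the 10 members, *ROR2*, up to 4 called genes per pathway list and day, up to 3 per marker list and the genes most like a member. For *WNT7B*, *WNT8B*, *WNT4* and *DKK1*, which were under background throughout, no similar genes are named. Promoters are RefSeq sequences (GRCh38.p14). The alternatives were only the arrays compared, quantile normalization, median centring, the replicate number as a block, moderation with a trend or robust to outliers, weighting of arrays, the methods' t-test, dim clusters left out, single-symbol clusters only, other thresholds, the mean of a gene's clusters, each array left out in turn and, chosen after seeing the data, the other *DKK1* cluster and leaving out the 4 arrays with the highest medians.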

Additional observations from a re-analysis of the deposited data

Results flagged for a closer look

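The difference between *ROR2* KD and control cells changed between consecutive days by a called amount for 4 members, each by a limma test of the difference of differences. Between days 7 and 14 it grew by 4.56 for *WNT7A* (adjusted p = 6.75e-06, with *WNT7A* under the background level in all of these groups but *ROR2* KD day 14) and by 1.37 for *SFRP2* (adjusted p = 0.00378). Between days 14 and 21 it grew by 1.34 for *SFRP1* (adjusted p = 0.00747) and by 1.14 for *SFRP2* (adjusted p = 0.0150), and changed by -2.01 for *FRZB* (adjusted p = 0.00266). Of all clusters, 0.292% had a called change between days 7 and 14 and 0.460% between days 14 and 21.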

How the results depend on the processing

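No member difference with an unadjusted p under 0.05 changed sign under the alternatives other than those chosen after seeing the data (1123 values), and of the other member differences 29 of 1025 values did over the 15 alternatives that leave out no single array (those chosen after seeing the data included), none of them called. With the methods' t-test (after Benjamini-Hochberg) 0 members were called on day 14 in place of 2 and 2 on day 21 in place of 4, and between days 7 and 14 1 in *ROR2* KD cells in place of 2 and 2 in control cells in place of 4. Quantile normalization left 2 members called in control cells between days 14 and 21 in place of 4. With the other *DKK1* cluster, the *DKK1* values with an unadjusted p under 0.05 turned, to -0.052 on day 7, -0.53 for *ROR2* KD cells from day 0 to day 7 and 0.064 for control cells from day 14 to day 21. Median centring moved the median of all clusters by -0.12 on day 7 and by less on the other days.

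Leaving out each array in turn left 0 to 0 members called between the lines on days 0 and 7, 2 to 2 on day 14 and 4 to 4 on day 21. The counts were 4 to 5 in *ROR2* KD and 4 to 4 in control cells from day 0 to 7, 2 to 2 and 3 to 3 from day 7 to 14, and 3 to 4 and 3 to 4 from day 14 to 21. For the change of the difference they were 0 to 0, 2 to 2 and 2 to 3 over the same steps. The weaker calls were *WNT4* in control cells from day 7 to 14 and *LEF1* in control cells from day 14 to 21, each lost without any 1 of 6 arrays, *WNT4* in *ROR2* KD cells from day 14 to 21, lost without 4 of 6, and *SFRP2* for the change of the difference from day 14 to 21, lost without 4 of 12 and with only the arrays compared (1.14, adjusted p = 0.104). The change of the *SFRP1* difference from day 14 to 21 was lost without the 4 arrays with the highest medians (1.24, adjusted p = 0.0666), as was the rise of *AXIN2* in *ROR2* KD cells from day 7 to 14 (1.16, adjusted p = 0.0774). The cause was not tested for any of these.

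The replicate numbers did not pair the arrays: the residuals of arrays with the same number in both lines correlated at -0.02 to 0.22, and 4 of 12 correlated best with their own number. With the replicate number as a block, 0, 0, 2 and 5 members were called on days 0, 7, 14 and 21, *WNT4* joining on day 21 (adjusted p = 0.0449), and it was also called with single-symbol clusters only (adjusted p = 0.0284). Signals under the background level limit what can be said of *WNT7B*, *WNT8B*, *WNT4* and *DKK1* on all arrays and of *WNT7A* in control cells. The same holds for *AXIN2* in control cells, where only 1 array (day 14) was above the level.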
